A study of Mus musculus with 20 samples.

Results

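TFIIIC peaks of chromosomes 1 to 19 were compared between wild-type (WT) and Rb1L/L mouse embryonic fibroblasts. The members are all autosomal peaks of the 4 TFIIIC chromatin immunoprecipitation (ChIP-seq) libraries, 1003405 of the 1036319 TFIIIC peaks and of the 1324083 peaks in the 12 peak lists of the series. WT replicate 1 held 195239 autosomal peaks, WT replicate 2 held 230951, Rb1L/L replicate 1 held 286175 and Rb1L/L replicate 2 held 291040. The fibroblasts were grown from C57BL/6 E13.5 embryos, were used at passage 4 and were fixed with 1% formaldehyde alone. Both Rb1L/L libraries, titled dL in the labels, came from cells that carry the L allele on both copies of Rb1, and the WT cells carry no named alteration. The series as a whole has 20 samples and also covers condensin II subunits and H3K27me3. The labels do not say whether replicates were separate embryos or cultures, so the p-values measure no more than how these libraries vary, and that variation may be technical.

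TFIIIC is the multi-subunit factor that recognises the internal promoters (A and B boxes) of tRNA genes and recruits TFIIIB, which in turn positions RNA polymerase III. Many genomic sites hold TFIIIC without the polymerase, and such sites, as well as tRNA genes, have been tied to chromosome architecture and to condensin. The antibody used here recognises the largest TFIIIC subunit, which contacts the B box. pRb, the product of Rb1, restrains E2F and also binds many chromatin regulators through its LXCXE-binding cleft, the surface that the L allele alters. The comparison asks whether TFIIIC lies at different places in the 2 genotypes.

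The Rb1L/L lists were longer and covered more of the autosomes. The number of peaks was 213095 ± 25252 in WT and 288608 ± 3440 in Rb1L/L (SD, n = 2; log2 ratio 0.44). Peaks covered 147 Mb and 186 Mb in the WT replicates and 262 Mb and 266 Mb in the Rb1L/L replicates (log2 ratio 0.68). The autosomes extend over 2415 Mb from position 3 Mb of each to its last peak in any list, and peaks covered 6.09% and 7.69% of that in WT and 10.9% and 11.02% in Rb1L/L. Peak density was 80.8 and 95.6 per Mb in WT and 118 and 121 per Mb in Rb1L/L. Both Rb1L/L libraries lay above both WT libraries in number, covered length and density. The 2-sided exact permutation p was 0.333 for number and for covered length, which is the smallest p that 2 libraries against 2 can give. The same exact permutation p was found for each of the other per-library results named with an effect size for width, gaps and clusters.

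The libraries of a genotype were not equally alike. WT replicate 1 shared 26.8% of the union of covered bases with WT replicate 2, but 28.5% and 28.2% with the Rb1L/L replicates. WT replicate 2 shared 36.6% and 36.9% with the Rb1L/L replicates, and the Rb1L/L replicates shared 46.9% with each other. WT replicate 1 thus shared least with each of the others, and each tested contrast was recomputed without it. The authors' peak score had a median of 172 and 289 in WT and 211 and 283 in Rb1L/L, an order that crosses genotypes. Read depth is unknown for these lists, and its part in the number and width of peaks was not tested.

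Peaks were wider in Rb1L/L across most of the distribution. The median width was 642 bp and 678 bp in WT and 764 bp and 756 bp in Rb1L/L (log2 ratio 0.20). At the upper quartile, widths were 819 bp and 878 bp against 993 bp and 983 bp. At the 95th percentile they were 1304 bp and 1496 bp against 1817 bp and 1828 bp. The lower end also shifted, with a 5th percentile of 532 bp and 531 bp in WT and 567 bp and 562 bp in Rb1L/L. The narrowest single peak was 319 bp and 232 bp wide in WT and 223 bp and 270 bp in Rb1L/L, so the genotypes overlapped there. Measured above the 5th percentile of its own list, the median width was 110 bp and 147 bp in WT and 197 bp and 194 bp in Rb1L/L. Genotypes did not overlap at the quantiles given.

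The shift was steepest in the widest classes. Peaks from 500 bp up to 1 kb were the common form, with 85.7% and 81.2% of WT peaks and 75.1% and 75.6% of Rb1L/L peaks. Peaks from 1 to 2 kb made up 11.7% and 15.0% in WT and 20.9% and 20.1% in Rb1L/L. Peaks from 2 to 5 kb numbered 1613 and 3935 in WT (0.826% and 1.70%) and 10086 and 10285 in Rb1L/L (3.52% and 3.53%). Those of at least 5 kb numbered 73 and 123 in WT and 609 and 689 in Rb1L/L. In each of these 3 wide classes both Rb1L/L libraries exceeded both WT libraries, and the WT replicates differed from each other in the same direction, with replicate 2 above replicate 1. Peaks under 500 bp went the other way, at 1.69% and 1.97% in WT and 0.265% and 0.537% in Rb1L/L. In covered length, peaks from 2 to 5 kb gave 4.01 Mb and 10.04 Mb in WT and 26.8 Mb and 27.5 Mb in Rb1L/L. Peaks of at least 2 kb made up 1.31% ± 0.63 of WT and 3.75% ± 0.02 of Rb1L/L peaks (SD, n = 2), a difference of 2.44 percentage points, and peaks of at least 1 kb made up 14.7% ± 2.96 and 24.2% ± 0.50, a difference of 9.54 points (exact permutation p 0.333 each).

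**Figure D1:**
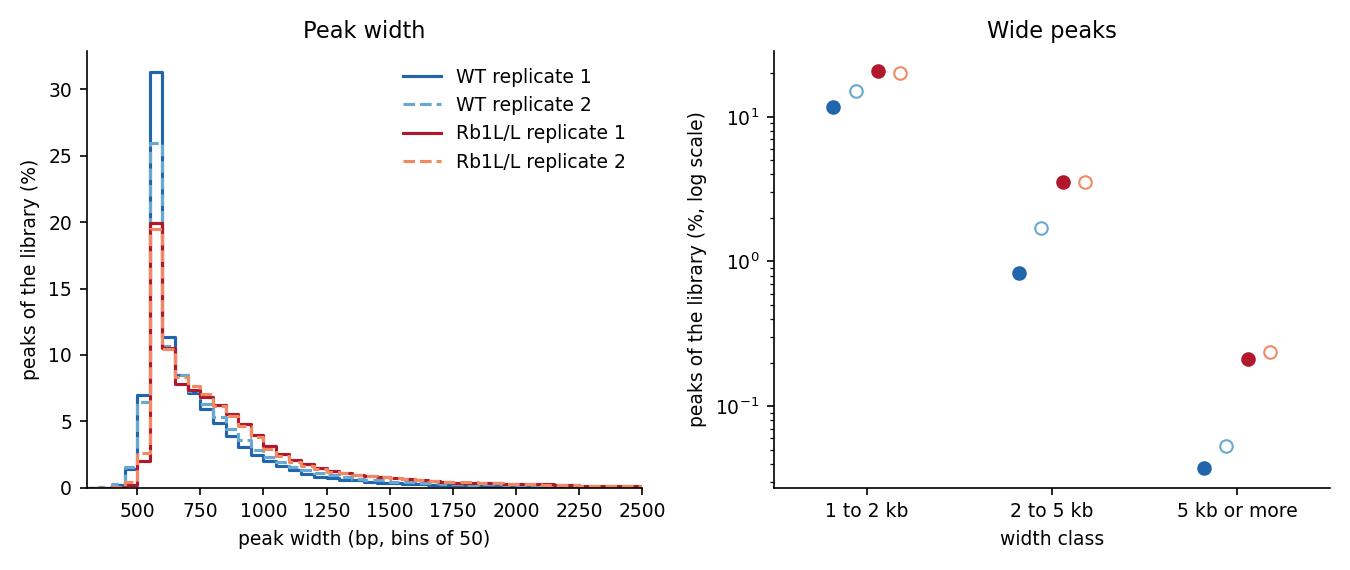
Left, share of each library's autosomal TFIIIC peaks by width in bins of 50 bp; right, share in the 3 widest classes on a log scale, with filled points for replicate 1 and open points for replicate 2. Both Rb1L/L libraries have fewer peaks in the main mode and 3.52% and 3.53% of peaks from 2 to 5 kb, against 0.826% and 1.70% in WT.

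Wide peaks were also high-scoring peaks within each list. The median score rose with width class in WT replicate 1 from 159 in the class from 500 bp to 445, 981 and 2918 in the 3 classes above it. In Rb1L/L replicate 1 the corresponding medians were 171, 544, 1395 and 3100. They were 258, 761, 1761 and 3100 in WT replicate 2 and 231, 744, 1932 and 3100 in Rb1L/L replicate 2. The value 3100 recurs exactly across lists, so the score cannot rank the peaks that share it. A score of this kind depends on read depth, so widths were also compared at equal rank of score. Among the 20000 highest-scoring peaks of each list, the median width was 1223 bp and 1495 bp in WT and 1960 bp and 1986 bp in Rb1L/L. In the lowest of 4 rank bands, which ended near the length of the shortest list, it was 590 bp and 596 bp against 701 bp and 707 bp. With the same number of top-scoring peaks kept in every list, 0.864% and 2.07% of WT peaks and 5.47% and 5.62% of Rb1L/L peaks reached 2 kb. The difference in share was then 4.08 percentage points, against 2.44 over whole lists. The log2 ratio of covered length was 0.40 at equal numbers, against 0.68, and that of median width was 0.38, against 0.20. Keeping equal numbers left WT replicate 1 whole and removed low-scoring peaks from the other lists, most of all from those of Rb1L/L. Width and score were correlated within each list (Spearman rho 0.66 and 0.75 in WT, 0.82 and 0.83 in Rb1L/L), so this cut itself removes narrower peaks. The width difference was present at equal list length and in each of the 4 rank bands. How much of its size comes from the cut was not tested.

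The same places were wider in Rb1L/L. Peaks of the 4 lists were merged where they overlapped, and 51398 merged regions held exactly 1 peak of each library. At these regions the median width was 739 bp and 808 bp in WT and 962 bp and 942 bp in Rb1L/L (log2 ratio of medians 0.30, exact permutation p 0.333, the smallest possible). Both Rb1L/L peaks were wider than both WT peaks at 21963 regions (42.7%) and narrower at 2431 (4.73%). In pairs of libraries, the Rb1L/L peak was the wider one at 68.6% to 76.7% of regions. Between WT replicates, replicate 2 was the wider one at 58.4%, and between Rb1L/L replicates, replicate 2 at 46.2%. Each pair across genotypes differed by more than either pair of replicates.

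Narrow and wide regions both differed. Regions were cut into 4 equal classes by their mean width over the 4 libraries. In the narrowest class the medians were 600 bp and 620 bp in WT and 708 bp and 697 bp in Rb1L/L. In the widest class they were 1082 bp and 1213 bp against 1418 bp and 1403 bp. Both Rb1L/L peaks were wider than both WT peaks in 33.4%, 42.2%, 45.3% and 49.9% of regions from the narrowest to the widest class. The Rb1L/L peak reached further by a median of 63 bp on the low-coordinate side and 73.5 bp on the high-coordinate side, and at 48.6% of regions it reached further on both sides. Midpoints lay a median of 106 bp apart between WT replicates and 72.5 bp between Rb1L/L replicates, and the mean midpoints of the genotypes lay 68.2 bp apart, the latter being a distance of averages. The extension in Rb1L/L was thus similar on both sides.

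**Figure D2:**
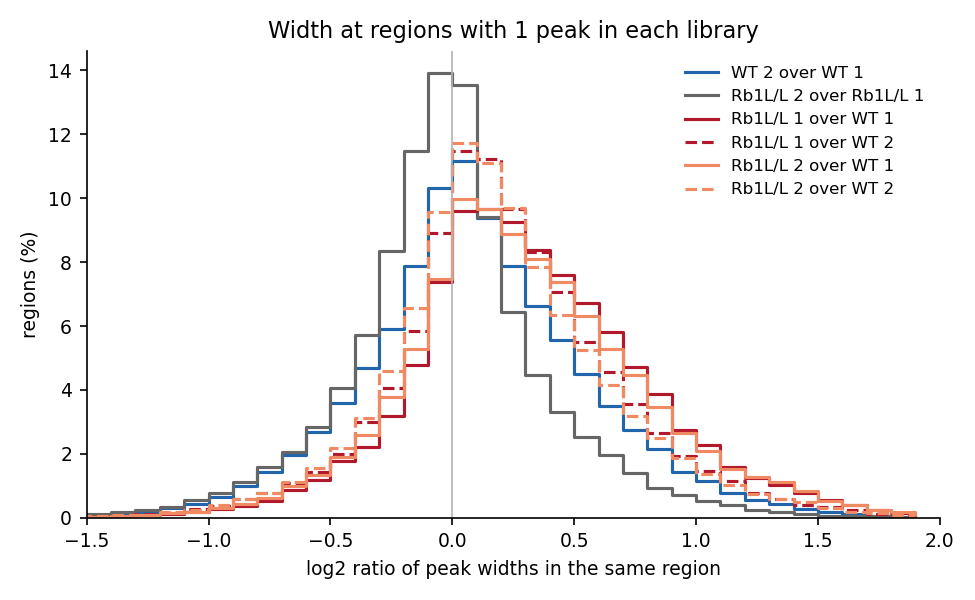
Distribution of the log2 ratio of peak widths in 51398 regions with 1 peak in each library, for the 6 pairs of libraries (x axis, bins of 0.1 log2 units; y axis, percent of regions). The 4 pairs of an Rb1L/L with a WT library are shifted to the right, with medians of 0.16 to 0.28, while the replicate pairs have medians of 0.08 (WT) and −0.02 (Rb1L/L).

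Single regions showed how far widths could part. On chromosome 12 from 109209302 to 109211677 (mm9, as all positions here), peaks were 528 bp and 558 bp wide in WT and 2376 bp and 2257 bp in Rb1L/L. On chromosome 17 from 56877007 to 56880088 they were 593 bp and 604 bp against 2929 bp and 2426 bp, and on chromosome 11 from 100410711 to 100413764 they were 584 bp and 665 bp against 2559 bp and 3054 bp. In the opposite direction the leading region, on chromosome 2 from 26435009 to 26437464, had peaks of 1802 bp and 1631 bp in WT and 616 bp and 597 bp in Rb1L/L. It was followed by chromosome 12 from 60319564 to 60321130 (1515 bp and 1420 bp against 597 bp and 576 bp) and by chromosome 2 from 104333123 to 104334828 (1706 bp and 1405 bp against 592 bp and 579 bp). These were chosen for their difference and are given as a description. The 3 regions with the largest minimum width had no common direction. On chromosome 3 from 93005637 to 93024022 the widest peaks were 14901 bp and 18198 bp in WT and 18357 bp and 18354 bp in Rb1L/L. On chromosome 8 from 19966533 to 19986633 they were 13361 bp and 13430 bp against 13310 bp and 13033 bp, and on the same chromosome from 19701837 to 19715406 they were 13570 bp and 11176 bp against 12799 bp and 12771 bp. Rb1L/L lay above WT in the first of these, below it by little in the next, and within the WT range in the last. These regions of chromosome 8 lie just before a stretch of 2.05 Mb, from 20033903 to 22085650, that held no peak in any list of the series. The longest such stretch measured 7.01 Mb, on chromosome 7 from 39356322 to 46368286, and the next in length after these 2 measured 2.02 Mb, on chromosome 1 from 85336898 to 87361163.

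Peaks of the Rb1L/L lists lay closer together. The median edge-to-edge gap between neighbouring peaks was 4621 bp and 3473 bp in WT and 2663 bp and 2537 bp in Rb1L/L (log2 ratio −0.62). Gaps under 2 kb made up 30.6% and 37.2% of WT gaps and 43.3% and 44.5% of Rb1L/L gaps. Gaps of 10 to 100 kb were similar in number, 58464 and 56720 in WT and 57201 and 56245 in Rb1L/L. Edge-to-edge gaps shorten where peaks are wider. Measured between midpoints, 21.3% and 25.5% of distances in WT and 27.8% and 28.9% in Rb1L/L were under 2 kb, a difference of 4.94 percentage points against 9.99 between edges. Gaps under 2 kb numbered 59727 and 85891 against 123924 and 129414, so the longer lists differed mainly in short gaps. Gaps of at least 100 kb were fewer, at 1767 and 1625 in WT and 934 and 996 in Rb1L/L, and shorter in sum, at 266 Mb and 243 Mb against 141 Mb and 151 Mb. Both Rb1L/L libraries lay outside the WT range in each of these measures except the gaps of 10 to 100 kb, where the genotypes overlap.

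A longer list has shorter gaps by itself, so spacing was also taken relative to the density of each list. Divided by the mean gap of its own list, the median gap was 0.398 and 0.360 in WT and 0.354 and 0.344 in Rb1L/L. The coefficient of variation of gaps (their SD over their mean, higher where spacing is more uneven) was 2.41 ± 0.15 in WT and 2.72 ± 0.04 in Rb1L/L (SD, n = 2), with no overlap. The longest gap was about 7.01 Mb in every list, while the mean gap was 11616 bp and 9653 bp in WT and 7521 bp and 7384 bp in Rb1L/L. A stretch of fixed length thus weighs more in this coefficient where the mean gap is shorter. How much of the difference comes from such stretches was not tested. With equal numbers of top-scoring peaks the median gap was 4621 bp and 3942 bp in WT and 3443 bp and 3277 bp in Rb1L/L. The log2 ratio of median gaps was −0.35 at equal numbers and −0.12 relative to the mean gap, against −0.62 as measured. The share of gaps under 2 kb differed by 6.26 percentage points at equal numbers, and by 2.24 points with a limit set as a fixed fraction of each list's mean gap. The difference in coefficient of variation was 0.312, and it was 0.205 without WT replicate 1 and 0.185 at equal numbers. The order of the libraries held for these measures, but WT replicate 2 stood closer to Rb1L/L than to WT replicate 1 in relative gap. Most of the difference in median gap between WT replicate 2 and the Rb1L/L libraries was absent on the relative scale.

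**Figure D3:**
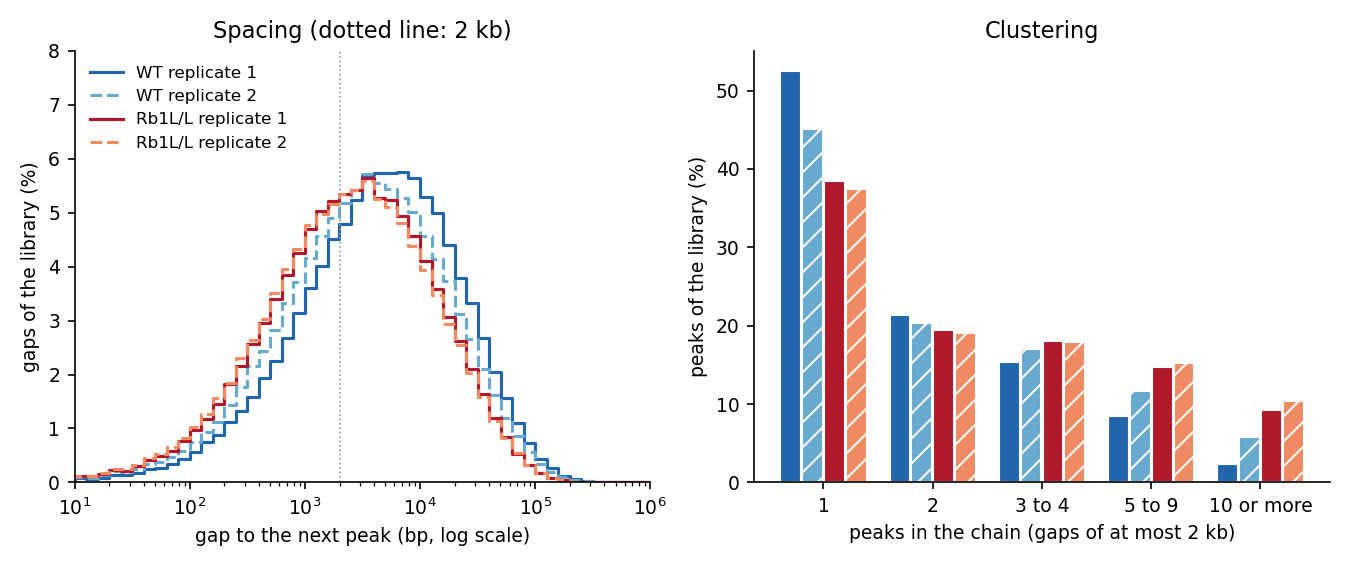
Left, distribution of gaps between neighbouring autosomal TFIIIC peaks (log x axis, percent of gaps on the y axis); right, share of peaks by the number of peaks in their chain, a chain being peaks joined by gaps of at most 2 kb. Solid lines and bars are replicate 1, and dashed lines and hatched bars are replicate 2; peaks in chains of 10 or more are 2.38% and 5.82% in WT and 9.30% and 10.4% in Rb1L/L.

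Clusters took up a larger share of the Rb1L/L peaks. A cluster was defined as at least 3 peaks chained by gaps of at most 2 kb. These gaps run from edge to edge, so wider peaks raise the share in clusters by themselves. No clusters were built from midpoint distances, and the part of peak width in the share was not tested. Clusters held 26.1% and 34.5% of WT peaks and 42.0% and 43.4% of Rb1L/L peaks, a difference of 12.4 percentage points that was 8.24 points without WT replicate 1. There were 12182 and 17260 clusters in WT and 24110 and 24838 in Rb1L/L. Single peaks, with no neighbour within 2 kb, were similar in number: 102433 and 104257 in WT and 110263 and 108903 in Rb1L/L. Chains of 10 or more peaks numbered 359 and 975 in WT and 1850 and 2089 in Rb1L/L, and chains of 5 to 9 numbered 2706 and 4356 against 6737 and 7119. The libraries ranked alike at chaining gaps of 1 kb (12.4% and 18.1% against 23.6% and 25.2% of peaks) and 5 kb (52.4% and 60.7% against 67.4% and 68.4%). With equal numbers of top-scoring peaks, clusters held 26.1% and 31.5% of WT peaks and 36.5% and 37.9% of Rb1L/L peaks. The width difference was larger in those lists (log2 ratio of median width 0.38, against 0.20), so they do not set width aside.

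Clustered peaks were wider than single ones in every library. Peaks in chains of 10 or more had a median width of 779 bp and 849 bp in WT and 963 bp and 949 bp in Rb1L/L, against 632 bp and 657 bp and 734 bp and 720 bp for single peaks. The share of at least 2 kb wide was 5.67% and 8.50% in WT and 13.7% and 13.2% in Rb1L/L in these chains, and 0.422% and 0.630% against 1.16% and 1.08% among single peaks. The genotype difference in width was thus seen in clusters and outside them. Remote peaks, with no other peak within 10 kb, were also wider in Rb1L/L, with medians of 749 bp and 729 bp against 638 bp and 669 bp, although they were a smaller share of the lists (9.10% and 8.82% against 15.6% and 12.3%).

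Some gaps between neighbouring peaks of WT were spanned by 1 peak of Rb1L/L. Of the 59747 gaps of at most 2 kb in WT replicate 1, single peaks of the Rb1L/L replicates spanned 19.4% and 19.3%, and those of WT replicate 2 spanned 11.9%. Of the 85913 such gaps in WT replicate 2, the Rb1L/L replicates spanned 17.3% and 17.6% and WT replicate 1 spanned 6.83%. In the other direction, gaps of Rb1L/L replicate 1 were spanned by the WT replicates in 4.32% and 6.51% and by the other Rb1L/L replicate in 11.5%, and gaps of Rb1L/L replicate 2 in 4.13%, 6.28% and 11.1%. Joining of WT neighbours in Rb1L/L was more frequent than between WT replicates, and joining of Rb1L/L neighbours in WT was less frequent than between Rb1L/L replicates. Among regions called in both WT libraries, 23473 gaps were at most 2 kb long, and 17.9% and 17.7% were spanned in the Rb1L/L replicates (11.3% in both). By construction a WT peak cannot span them, so no test was made. Among regions of both Rb1L/L libraries, 66303 gaps were at most 2 kb long, and 3.10% and 4.57% were spanned in the WT replicates (0.822% in both).

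The longest joins ran over 4 WT regions. A join is counted where 1 peak spans the gaps between neighbouring regions, and the outer regions may extend past it. On chromosome 5 from 125513090 to 125525508, the gaps between 4 regions of both WT libraries were spanned by 1 peak of 10823 bp in Rb1L/L replicate 1 and by 1 of 12336 bp in replicate 2. On the same chromosome from 136200933 to 136215205 the joining peaks were 11556 bp and 10444 bp wide. Joins of 4 were also found on chromosome 4 from 141028551 to 141035804 (7407 bp and 10777 bp), on chromosome 2 from 27321449 to 27329804 (5790 bp and 8336 bp) and on chromosome 2 from 166861312 to 166866345 (5115 bp and 5125 bp). Runs of 3 or more WT regions joined in both Rb1L/L replicates numbered 167. No run of 3 or more Rb1L/L regions was joined in both WT replicates, and the 5 leading joins were of 2 regions. On chromosome 8 from 71995686 to 71999618 the joining WT peaks were 4070 bp and 3973 bp wide, and from 19758884 to 19764508 they were 7657 bp and 3648 bp. The other 3 were on chromosome 4 between 116823415 and 116828768 (4887 bp and 3152 bp), on chromosome 9 between 108382164 and 108404713 (3633 bp and 3640 bp) and on chromosome 2 between 24508392 and 24510478 (1762 bp and 1860 bp).

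Clusters were also built from the regions of all 4 libraries alone, so that their presence in both genotypes was fixed by that choice and peak number and covered length can be set side by side. Of the 75732 regions with a peak in all 4 libraries, 17.1% lay in clusters of at least 3, and 20 was the largest number in 1 cluster. Such a cluster of 20 lay on chromosome 4 from 138761736 to 138849365, with 42 peaks in each WT library and 38 in each Rb1L/L library. Its covered length was 50521 bp and 53881 bp in WT and 67947 bp and 72356 bp in Rb1L/L, so fewer peaks covered more sequence. The same held on chromosome 4 from 154516737 to 154596838 (41 and 41 peaks against 38 and 37; 37209 bp and 48227 bp against 59443 bp and 58762 bp). On chromosome 5 from 134712507 to 134787177 there were 35 and 41 peaks against 33 and 30, covering 35624 bp and 40514 bp against 57047 bp and 53575 bp. The clusters on chromosome 6 from 114536465 to 114580130 (18 regions) and chromosome 11 from 97290243 to 97354959 (17 regions) covered 19560 bp and 26508 bp against 29048 bp and 31025 bp, and 34306 bp and 45944 bp against 48626 bp and 45868 bp. In the last of these, Rb1L/L replicate 2 lay below WT replicate 2. CAP-H2 peaks lay in 3 of the 5 clusters, 15, 16 and 11 of them in WT and 17, 12 and 12 in Rb1L/L.

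Regions found in 2 libraries, whether of 1 genotype or of both, held narrower peaks than those found in all 4. Merging gave 423013 regions, of which 75732 (17.9%) had a peak in all 4 libraries, 82128 (19.4%) in 3 and 163088 (38.6%) in 1 library only. Both Rb1L/L libraries, and neither of the others, had a peak in 40150 regions (9.49%), and 7027 (1.66%) were found in the WT pair alone. The 4 combinations of 1 WT with 1 Rb1L/L library gave 11468 to 16629 each (2.71% to 3.93%). Median peak width was 877 bp in the regions of all 4 libraries, 699 bp in those of Rb1L/L alone and 608 bp in those of WT alone, and 625 bp to 639 bp in the 4 mixed combinations. The distance to the nearest region of all 4 libraries had a median of 8908 bp for Rb1L/L alone and 9246 bp for WT alone, and 20.1% and 19.4% lay within 2 kb. In the combinations of 1 library of each genotype that median was 8979 bp to 10081 bp. Distances to the common regions were thus similar for regions of 1 genotype and of mixed origin.

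Placement among chromosomes was similar in the 4 libraries. All 19 autosomes (100%) had a higher peak density, a larger median width, more peaks of at least 2 kb, a larger share of peaks in clusters and a shorter median gap in both Rb1L/L libraries than in both WT libraries. The share of peaks that each chromosome took was nearly constant, from 7.87%, 7.89%, 7.85% and 7.87% on chromosome 2 to 2.61%, 2.66%, 2.61% and 2.66% on chromosome 19 (WT replicates 1 and 2, then Rb1L/L replicates 1 and 2). Share was higher in both Rb1L/L libraries on 7 chromosomes (36.8%) and lower on 4 (21.1%). None of the 19 passed an adjusted p of 0.05 in either direction (limma, Benjamini-Hochberg; 4 at an unadjusted p under 0.05). The largest difference in share was on chromosome 10, at −0.04 ± 0.02 log2 units (SE; limma adjusted p 0.197). The densest chromosome was 11, with 109 and 131 peaks per Mb in WT and 161 and 164 in Rb1L/L, and the sparsest was 3, with 60.8 and 67.8 against 85.1 and 85.0.

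Along chromosomes, all 4 libraries had more peaks toward the telomere-proximal end. Mouse autosomes carry the centromere at the low-coordinate end, and each chromosome was cut into 10 equal parts. The part next to the centromere held 8.55% and 8.46% of peaks in WT and 8.54% and 8.45% in Rb1L/L. The part at the other end held 14.8% and 15.5% in WT and 15.2% and 15.5% in Rb1L/L. The genotypes overlapped in both (exact permutation p 0.667 each). With equal numbers of top-scoring peaks they did not: the last part then held 14.8% and 16.0% in WT and 16.2% and 16.6% in Rb1L/L, and the first held 8.55% and 8.37% against 8.32% and 8.18%. Median width was larger in Rb1L/L in every part, at 778 bp and 764 bp against 657 bp and 693 bp next to the centromere and 780 bp and 778 bp against 642 bp and 684 bp at the other end. The median gap in the last part was 3134 bp and 2278 bp in WT and 1710 bp and 1592 bp in Rb1L/L.

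**Figure D4:**
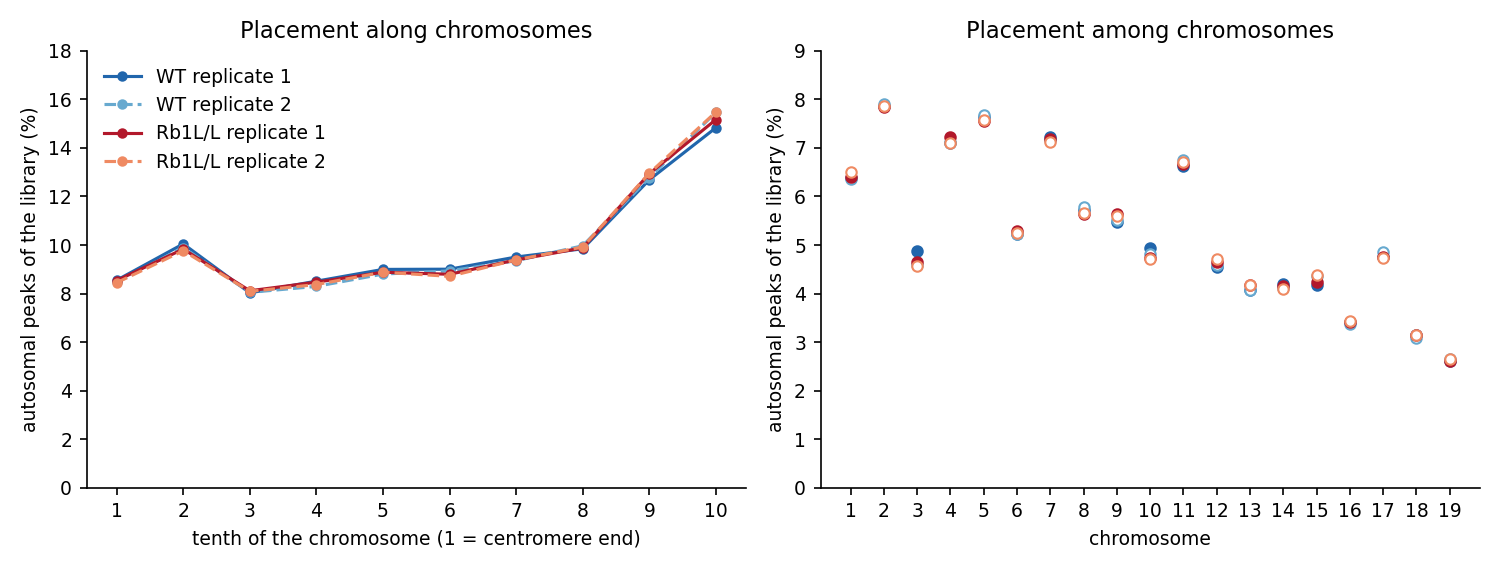
Share of each library's autosomal TFIIIC peaks in 10 equal parts of the chromosomes (left) and on each of the 19 autosomes (right). The lines of the 4 libraries nearly coincide and reach 14.8% to 15.5% in the last part.

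At the scale of 1 Mb windows, more peaks appeared nearly everywhere in Rb1L/L. Of the 2415 windows whose mean over the libraries reached 5 peaks, 2202 (91.2%) had more peaks in both Rb1L/L libraries than in either WT library, and 6 (0.248%) had fewer. As a share of each list, which removes the overall difference in number, 539 windows (22.3%) were higher and 566 (23.4%) lower in both Rb1L/L libraries. In limma, 4 windows fell (0.166%) and 0 rose (0%) at an adjusted p below 0.05, with Benjamini-Hochberg adjustment over the 2415 (311 had an unadjusted p below 0.05). From the 25th to the 75th percentile, windows differed by −0.12 to 0.11 log2 units. The number called was 0 when libraries were centred on their median window. With a library left out, the residual error comes only from the genotype that keeps 2 libraries. More windows were then called without a WT replicate than without an Rb1L/L replicate. The WT replicates were less alike than the Rb1L/L replicates, so such counts do not measure how stable a call is.

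The 4 windows that fell in share held about as many peaks in both genotypes, and these peaks were wider in Rb1L/L. On chromosome 5 from 125000001 to 126000000 there were 305 and 356 peaks in WT and 323 and 336 in Rb1L/L, and the mean width was 926 bp and 1046 bp against 1465 bp and 1447 bp. The share difference was −0.44 ± 0.06 log2 units (SE; limma adjusted p 0.031), yet the covered length was 283 kb and 372 kb in WT and 473 kb and 486 kb in Rb1L/L. On chromosome 10 from 80000001 to 81000000, with 374 and 371 against 350 and 336 peaks, the share difference was −0.56 ± 0.08 (limma adjusted p 0.042) and the mean width was 969 bp and 1309 bp against 1797 bp and 1933 bp. The neighbouring window of chromosome 10 from 79000001 to 80000000 (326 and 366 against 343 and 344 peaks) differed by −0.45 ± 0.06 in share (limma adjusted p 0.031). The window on chromosome 17 from 56000001 to 57000000 (304 and 353 against 338 and 336) differed by −0.40 ± 0.06 (limma adjusted p 0.042). The next window by p, on chromosome 17 between 27000001 and 28000000 (321 and 384 against 374 and 380), differed by −0.34 ± 0.05 and missed the threshold (limma adjusted p 0.054). It passed at a score of at least 100 (limma adjusted p 0.000157). With a library left out, its share difference stayed between −0.35 and −0.33. At equal list lengths the share differences were smaller and none passed: −0.25 in the window of chromosome 5, −0.36 and −0.18 in those of chromosome 10 from 80000001 and from 79000001, and −0.15 and −0.06 in those of chromosome 17 from 56000001 and from 27000001 (limma adjusted p 0.298 to 0.702). None passed with each library centred on its median window (0.227 to 0.243). Not every call was kept without an Rb1L/L replicate. With a library left out, the share difference ranged from −0.46 to −0.43 on chromosome 5 and from −0.42 to −0.39 on chromosome 17 from 56000001. On chromosome 10 it ranged from −0.69 to −0.43 (from 80000001) and from −0.49 to −0.41 (from 79000001). By covered length in place of number, 0 windows passed in either direction (limma; 351 had an unadjusted p below 0.05), and the window of chromosome 5 had a difference of −0.11 (limma adjusted p 0.513).

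The 5 windows with the smallest p for a higher share did not pass, and whether they do depends on the setting. Chromosome 8 from 15000001 to 16000000 had 41 and 59 peaks in WT and 114 and 112 in Rb1L/L (0.75 ± 0.12 log2 units in share, limma adjusted p 0.054). Chromosome 2 from 178000001 to 179000000 had 128 and 168 against 265 and 284 (0.46 ± 0.08, limma adjusted p 0.054). The other 3 by the same rule were on chromosome 12 between 29000001 and 30000000 (100 and 142 against 221 and 233 peaks), on chromosome 15 between 28000001 and 29000000 (23 and 32 against 61 and 59) and on chromosome 5 between 27000001 and 28000000 (61 and 74 against 121 and 131), with limma adjusted p-values of 0.097, 0.106 and 0.108. In all 5 both Rb1L/L libraries held more peaks than both WT libraries, as in 2202 of all 2415 windows (91.2%). The 5 were chosen for a higher share, so this count adds no support. All 5 passed at a score of at least 100 (limma adjusted p 0.000157 to 0.0121) and none at equal list lengths (limma adjusted p 0.298 each). With a library left out, the share difference ranged from 0.61 to 0.89 on chromosome 8 and from 0.38 to 0.53 on chromosome 2. It ranged from 0.35 to 0.61 on chromosome 12, from 0.57 to 0.80 on chromosome 15 and from 0.41 to 0.50 on chromosome 5. No call is read from these fits, since 1 genotype then has a single library.

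Mean peak width per window was higher along nearly the whole of the autosomes. It was higher in Rb1L/L in 2392 of 2415 windows, and in 2210 (91.5%) both Rb1L/L libraries lay above both WT libraries, with 6 (0.248%) the other way. In limma, 1834 (75.9%) passed an adjusted p of 0.05 as wider and 2 (0.0828%) as narrower (Benjamini-Hochberg). The median difference was 0.17 log2 units, and the central 90% of windows lay between 0.06 and 0.36. A shift of a whole library enters every window, so these windows are not independent evidence for a difference between genotypes. Far fewer were called without either Rb1L/L replicate. The median difference was 0.15 and 0.21 without WT replicates 1 and 2, and 0.16 and 0.18 without Rb1L/L replicates 1 and 2. The difference was larger where peaks were dense. In the tenth of windows with the most peaks, the mean width had a median of 769 bp and 849 bp in WT and 1026 bp and 1043 bp in Rb1L/L (median log2 difference 0.35). In the tenth with the fewest it was 753 bp and 786 bp against 852 bp and 841 bp (0.13). Over windows, the difference in width and the mean number of peaks had a Spearman rho of 0.59, given as a description, since both come from the same 4 lists. Both windows called narrower lie on chromosome 8. From 19000001 to 20000000, which holds the 13 kb peaks described above, mean width was 2928 bp and 2117 bp in WT and 1779 bp and 1727 bp in Rb1L/L. From 56000001 to 57000000 it was 3478 bp and 4122 bp against 2839 bp and 2115 bp, over 3 to 8 peaks per library.

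**Figure D5:**
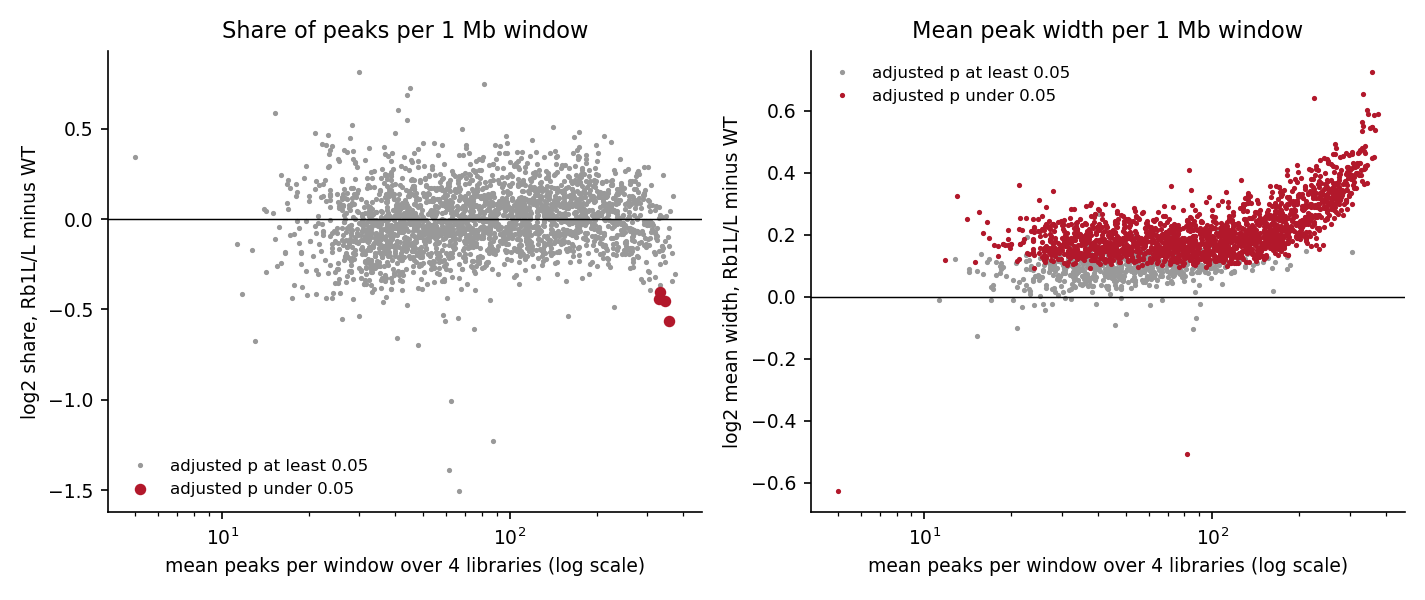
Difference between Rb1L/L and WT in 2415 autosomal windows of 1 Mb against the mean number of peaks per window (log x axis), for the share of peaks (left) and the mean peak width (right), with windows under an adjusted p of 0.05 (limma) in red. Shares scatter around 0, with 4 windows called at the dense end, while widths lie above 0 in 2392 windows and climb with density.

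With each library centred on its own median window, width differences that exceed the general shift were few. After centring, both Rb1L/L libraries lay above both WT libraries in 679 windows (28.1%) and below them in 553 (22.9%). In limma, 44 windows (1.82%) had a higher and 5 (0.207%) a lower centred width in Rb1L/L (adjusted p under 0.05, Benjamini-Hochberg, with 507 under 0.05 unadjusted). A lower centred width means less widening than in the median window, and none of the 5 was called narrower without centring. The windows of higher centred width were dense, with medians of 220.5 and 293.5 peaks in WT and 332 and 337.5 in Rb1L/L, against 62, 70, 88 and 89 over all windows. They were led by 3 windows of chromosome 4. From 140000001 to 141000000 the mean width was 770 bp and 927 bp in WT and 1265 bp and 1277 bp in Rb1L/L (centred difference 0.42 ± 0.08 log2 units, limma adjusted p 0.033). From 152000001 to 153000000 it was 734 bp and 862 bp against 1105 bp and 1211 bp (0.37 ± 0.07, limma adjusted p 0.033), and from 153000001 to 154000000 it was 739 bp and 833 bp against 1074 bp and 1125 bp (0.31 ± 0.06, limma adjusted p 0.033). The windows of lower centred width were sparse, with medians of 17 to 29 peaks per library. On chromosome 7 from 78000001 to 79000000 mean width was 786 bp and 785 bp in WT and 732 bp in each Rb1L/L library, over 12 to 29 peaks (centred difference −0.27, limma adjusted p 0.021). On chromosome 2 it was 766 bp and 797 bp against 778 bp and 761 bp from 114000001 to 115000000, and 708 bp and 740 bp against 714 bp and 701 bp from 62000001 to 63000000, so that without centring the genotypes overlapped. The other 2, on chromosome 9 from 80000001 to 81000000 and on chromosome 18 from 72000001 to 73000000, fall outside the rule for naming and are given because the count is small. Without centring the genotypes overlapped on chromosome 9 (760 bp and 811 bp against 794 bp and 785 bp). They did not on chromosome 18 (939 bp and 837 bp against 836 bp and 789 bp). Centred calls numbered 0 with equal numbers of top-scoring peaks. They were more without either WT replicate and fewer without either Rb1L/L replicate. At equal numbers the 3 windows of chromosome 4 differed by 0.35 (from 140000001), 0.21 (from 152000001) and 0.18 (from 153000001), with limma adjusted p-values of 0.158, 0.180 and 0.168. With a library left out, their centred differences ranged from 0.32 to 0.51, from 0.29 to 0.44 and from 0.27 to 0.36.

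TFIIIC peaks were also set beside the condensin II and H3K27me3 lists. A peak was assigned to another protein where its midpoint fell in a region called for that protein in both genotypes, so that width alone does not raise the count. CAP-D3, a subunit of the chromosome-shaping complex condensin II, had 8967 such regions. Of WT peaks, 1.51% and 1.08% had their midpoint there, and of Rb1L/L peaks 0.464% and 0.425%. Among peaks from 2 to 5 kb it was 55 and 34 peaks in WT (3.41% and 0.864%) and 17 in each Rb1L/L library (0.169% and 0.165%). CAP-D3 positions were thus rarer among the Rb1L/L peaks in number and share, and the WT replicates differed from each other in that class by more than WT replicate 2 did from Rb1L/L.

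CAP-H2, another condensin II subunit, had 28749 such regions. Of all peaks, 7325 and 7030 in WT (3.75% and 3.04%) and 5150 and 5146 in Rb1L/L (1.80% and 1.77%) had their midpoint there. Number and share were thus both lower in Rb1L/L. In the class from 2 to 5 kb, 173 and 238 WT peaks (10.7% and 6.05%) and 262 and 249 Rb1L/L peaks (2.60% and 2.42%) lay there. In that class the shares were lower in Rb1L/L and the numbers were not. Peaks in clusters lay at CAP-H2 more often than peaks outside them in each of the 4 libraries. The shares in and outside clusters were 6.11% and 2.92% in WT replicate 1 and 4.39% and 2.33% in WT replicate 2. In Rb1L/L they were 2.48% and 1.31% in replicate 1 and 2.40% and 1.28% in replicate 2. The condensin II libraries number 1 per genotype. They and the H3K27me3 libraries were fixed with an additional crosslinker, which the TFIIIC libraries lacked. Fixation and target can thus not be told apart when TFIIIC is set beside either of them.

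H3K27me3, the mark set by Polycomb repressive complex 2, showed less separation. Of the WT peaks 1.21% and 1.48%, and of the Rb1L/L peaks 1.60% and 1.75%, had their midpoint in one of the 7462 regions with H3K27me3 in all 4 libraries of that mark. Among clustered peaks 0.766% and 1.13% of the WT and 1.57% and 1.92% of the Rb1L/L peaks lay there, and among the rest 1.36% and 1.66% against 1.62% in each Rb1L/L library. The genotypes did not overlap among clustered peaks and did overlap outside clusters. The difference between these differences was not tested.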

How the data were processed

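The data are ChIP-seq peak lists of TFIIIC, 2 libraries per genotype, and the labels list an input for each. The submitters' processing notes name Bowtie2 2.3.0, MACS 1.4.0rc2 and the mouse build mm9; settings are not given in the sources used here. The authors deposited 1 list per library with positions and a score per peak. The score has no header and is taken here as the peak caller's scaled negative log10 p-value; it served to rank and filter peaks within a list. Read depth is unknown and limits the precision of every count. Sequence and genes were not used here, as the positions are of mm9.

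Only chromosomes 1 to 19 were kept. Groups and replicate numbers come from the titles. Per-library values were compared with 2-sided exact permutation tests, and windows and chromosomes with limma 3.58.1 (R 4.3.3; trended variance, Benjamini-Hochberg threshold 0.05, pseudocount of 0.5 peaks for windows). Other steps used Python 3.11.15. Peaks sharing at least 1 bp were merged. Windows hold a peak by its midpoint. The window fits were tested on simulated data with 200 of 2415 windows changed. The share fit recovered 10% of windows changed 1.25-fold, 61% at 1.5-fold and 93.5% at 2-fold, with 0, 6 and 9 false calls. The fit of centred width recovered 69% at 1.1-fold and 100% at 1.25-fold and 1.5-fold, with 7, 8 and 10 false calls. The width simulation gave every window the same noise, the median SD over windows, so these rates do not hold for noisier windows. In the data, the window of chromosome 8 from 19000001 had a centred difference of −0.68 log2 units and was not called (limma adjusted p 0.071). Named windows are the 5 per direction with the smallest p for share and 3 for centred width; named regions are the 3 with the largest minimum width over the libraries, the 3 per direction with the largest ratio of the smallest width of one genotype to the largest of the other, the 5 joins of most regions per direction (ties by the lower score of the 2 joining peaks, highest first), the 5 largest clusters and the 3 longest stretches without a peak. The members and lists were chosen with earlier results of these data known. The alternatives were a minimum score, equal list lengths, leaving out each replicate, other chaining gaps and cluster sizes, midpoint distances, window sizes, filters, pseudocounts and centring, and a replicate block. Scaling by a library's own floor or mean gap, and covered length in windows, were added after seeing the data.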

Additional observations from a re-analysis of the deposited data

How the results depend on the processing

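Peak number, covered length, width, gaps and clustering kept their direction under every alternative run for them. All were run at a score of at least 100, at equal list lengths and leaving out each replicate. Equal list lengths give no value for peak number. Other chaining gaps and cluster sizes were run for clustering, midpoint distances for gaps, and scaling to the list for width and gaps. The share of gaps between WT regions spanned in Rb1L/L was 17.8%, moved to 18.8% at a score of at least 100 and 18.8% at equal list lengths, and ranged from 17.5% to 19.4% without a replicate. The genotype difference in the telomere-proximal part ranged from −0.145 to 0.491 percentage points (−0.145 without WT replicate 1) and in the centromere-proximal part from −0.0563 to 0.0326 (0.0326 without WT replicate 1, 0.0323 without Rb1L/L replicate 2) when a replicate was left out, so neither has a stable direction. Calls were less stable than values. Windows called for share (4, limma) numbered 76 at a score of at least 100, 0 at equal list lengths, 15 in windows of 500 kb, 0 centred on the median window, 0 by covered length, and 8 to 412 without a replicate. Windows called for mean width (1836) ranged from 320 to 2124 without a replicate, and those for centred width (49) from 2 to 334; the latter were 19 at a score of at least 100, 0 at equal list lengths and 1 in windows of 500 kb. Chromosomes called were 0, and 1 at a score of at least 100 (chromosome 10, lower in Rb1L/L) and 0 to 1 without a replicate (chromosome 3, lower in Rb1L/L, without WT replicate 2). The labels number the libraries 1 and 2 in both genotypes without saying what a number shares; deviations of same-numbered libraries over windows correlated at 0.29 for share and 0.10 for width. With the replicate block, 66 windows were called for share (33 higher, 33 lower), among them the 5 named as higher (limma adjusted p 0.00186 to 0.0297) and the window of chromosome 17 from 27000001 (0.00134), 127 for centred width and 1623 for mean width. The cause of the changes under the other settings was not tested. Unknown read depth limits every comparison of number and width.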

Other observations

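A few windows lost peaks in Rb1L/L although the lists grew; they were chosen after their values were seen. The largest falls in share were in 3 adjoining windows of chromosome 7 from 21000001 to 24000000. They held 113 and 68, 100 and 63, and 132 and 89 peaks in WT, and 51 and 34, 43 and 39, and 77 and 51 in Rb1L/L. The share differences were −1.51, −1.39 and −1.23 log2 units, with limma adjusted p-values of 0.068, 0.054 and 0.106. In each of the 3 windows both Rb1L/L libraries lay below both WT libraries, which held for 6 windows in all, and the WT replicates also differed from each other. Mean width was 879 bp and 829 bp in WT and 918 bp and 880 bp in Rb1L/L in the first of them. A further window of chromosome 7, from 33000001 to 34000000, had 98 and 53 against 59 and 40 peaks (−1.01, limma adjusted p 0.267), and there the genotypes overlapped in number.

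The largest rises in share were in windows of chromosome 8 (0.82, 0.75 and 0.73 log2 units), followed by chromosome 15 from 28000001 to 29000000 (0.69). Chromosome 8 as a whole held 5.73% and 5.78% of peaks in WT and 5.64% and 5.66% in Rb1L/L (limma adjusted p 0.197). From 5000001 to 6000000 there were 19 and 16 peaks in WT and 45 and 40 in Rb1L/L (0.82 log2 units, limma adjusted p 0.153). From 22000001 to 23000000, next to the stretch of 2.05 Mb without a peak, there were 29 and 26 against 59 and 66 (0.73, limma adjusted p 0.117).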
